A study of Homo sapiens with 4 samples.

Results

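The mRNAs of serine-threonine protein phosphatase subunits were examined for contact with the helicase DHX36. They were chosen by identifier alone, as all genes whose symbol begins with PPP and a digit from 1 to 6, followed by C for a catalytic subunit or R for a regulatory subunit. The rule found 80 genes among 26490 lines of the deposited table, of which 11 were catalytic and 69 regulatory. PPP2R3B was listed on 2 lines, both at 0, and was counted as 1 gene. Of the regulatory genes, 42 were PPP1R genes and 27 belonged to the PP2A, calcineurin, PP4 and PP6 groups. One of the 80 identifiers, PPP4R1L, was not annotated as protein-coding.

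DHX36 is a DEAH-box helicase that binds and unwinds guanine quadruplexes. PAR-CLIP was performed in HEK293, a human embryonic kidney cell line, with stable tetracycline-inducible transgenes. One line expressed HA-Flag-DHX36-iso2 (FH-DHX36) and the other HA-Flag-DHX36-iso1-E335A (FH-DHX36-E335A), which carries a substitution in the helicase domain. In both lines the transgene was switched on by tetracycline (500 ng/ml, 15 h), the RNA was labeled with 4-thiouridine, cells were irradiated at 365 nm for 5 min, and the tagged protein was recovered with an anti-FLAG antibody. The tagged protein was present on top of the cells' own DHX36. Isoform and mutation differed together between the lines and cannot be told apart.

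Each line had 2 replicates, but the table gives 1 value per gene and line, so no spread between replicates was available and no gene was tested between the lines. The table listed 8752127 crosslinked reads for FH-DHX36-E335A and 2160413 for FH-DHX36, and a gene with few sites could more easily be listed in the deeper PAR-CLIP. A crosslinked read is a read inside a cluster, and a cluster is a stretch of overlapping reads with the T-to-C conversions left by crosslinked 4-thiouridine. Of 8 transcripts known from HEK293 cells, 4 had clusters in each PAR-CLIP, with 5281 and 7868 reads in sum for FH-DHX36-E335A and FH-DHX36. VIM carried 2435 and 7676 of them, while NEFM, PAX2 and KRT18 were at 0 in both. None of 6 markers of blood, liver, fibroblasts or pancreas had a read. Where a pair of values is given in the text that follows, the FH-DHX36-E335A value comes first.

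Phosphatases of this family remove phosphate from serine and threonine. A small set of catalytic subunits is shared among many regulatory subunits, which set the place, the substrate and the activity of the enzyme. PP1 consists of a catalytic subunit (PPP1CA, PPP1CB or PPP1CC) with 1 or more regulators of the PPP1R group. PP2A joins a catalytic subunit (PPP2CA or PPP2CB), a PPP2R1 scaffold and a variable B subunit. Calcineurin is a calcium-dependent dimer of a PPP3C and a PPP3R chain, PP4 and PP6 have their own regulators, and PP5 is a single chain with its regulatory domain built in.

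G-rich stretches are shown because DHX36 is known for binding guanine quadruplexes, which can form where 4 runs of G lie close together. The sense strand of the canonical transcript of each gene was searched for 4 runs of at least 3 G, separated by 1 to 7 bases. The matches below are a choice from the UTRs of members named in the results. Other members also held UTR matches that are not printed. Among them were PPP4R2, PPP1R8 and PPP6R2, and PPP2R5B and PPP2R3B, which had no cluster. Capitals mark runs of at least 3 G, and coordinates are on GRCh37. The table counts clusters per region and does not place them, so that no match is tied to a cluster. For each site the share of UTRs of the same kind and a length within 80% to 120% that held such a match is given after the sequences.
PPP1R37 3'UTR, chr19:45650280-45650299, plus strand: GGGcaGGGtGGGGGGatGGG
PPP1R37 3'UTR, chr19:45650449-45650467, plus strand: GGGtgtGGGtgaGGGtGGG
PPP1R9B 3'UTR, chr17:48211251-48211274, minus strand: GGGGGcggaaccGGGtGGGcGGGG
PPP2R4 3'UTR, chr9:131910261-131910278, plus strand: GGGctGGGGtGGGGtGGG
PPP6R1 3'UTR, chr19:55741825-55741843, minus strand: GGGGtGGGGGcaGGGcGGG
PPP3R1 3'UTR, chr2:68406097-68406116, minus strand: GGGGGtGGGtaaGGGaGGGG
PPP1CB 5'UTR, chr2:28974831-28974851, plus strand: GGGGaGGGGGtGGGGGGaGGG
PPP1CC 5'UTR, chr12:111180637-111180659, minus strand: GGGagcGGGGtggcaGGGGGGGG

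Such a match was held by 11.5% of 3'UTRs as long as that of PPP1R37, 17.7% for PPP1R9B, 16.5% for PPP2R4, 11.8% for PPP6R1 and 20.7% for PPP3R1. For the 5'UTRs the shares were 10.9% for PPP1CB and 7.78% for PPP1CC. None of these shares was near 0, so that holding a single match did not set these UTRs far apart from others of their length. A looser search, for 4 runs of at least 2 G, gave a different picture for PPP1R37. Its 3'UTR of 723 nt held 12 such matches, a number reached by 0.210% of 1907 3'UTRs of like length, whose median was 1.

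At least 1 FH-DHX36-E335A cluster lay on 49 of the 80 genes (61.3%), against 34.5% of all lines and 47.7% of the lines matched to protein-coding genes. Among the catalytic subunits 10 of 11 had one (90.9%, 95% Wilson interval 62.3 to 98.4), and among the regulatory subunits 39 of 69 (56.5%, 44.8 to 67.6). In the FH-DHX36 PAR-CLIP 31 of 80 genes had a cluster (38.8%), against 22.4% of all lines and 31.0% of protein-coding ones. The catalytic share was 7 of 11 (63.6%, 35.4 to 84.8) and the regulatory share 24 of 69 (34.8%, 24.6 to 46.6). The intervals of both classes overlapped in either PAR-CLIP and cover counting error only. Every member bound by FH-DHX36 was also bound by FH-DHX36-E335A, which gave 31 members with clusters in both, against 21.4% of all lines and 29.6% of protein-coding ones. In addition 18 members were listed with FH-DHX36-E335A alone, and 31 had no cluster in either. Among all genes with an FH-DHX36-E335A cluster, 62.1% also had an FH-DHX36 cluster. Genes listed with FH-DHX36 alone were few in the whole table, at 261 against 5669 with clusters in both. Having no such member therefore does not set this family apart.

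Catalytic subunits carried more clusters and reads than regulatory ones when bound. The median bound catalytic gene had 12 FH-DHX36-E335A and 5 FH-DHX36 clusters, and the median bound regulatory gene 5 and 2, which equal the medians of all bound genes. Median crosslinked reads with FH-DHX36-E335A were 1104 for catalytic genes, 283 for regulatory genes and 326 for all bound genes. With FH-DHX36 they were 670, 152.5 and 121. Per kb of canonical mRNA, the catalytic medians were 472 reads for FH-DHX36-E335A and 313 for FH-DHX36. The regulatory medians were 94.2 and 56.9 reads per kb, beside 94.3 and 35.3 for all bound genes.

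The gap was smaller after division by mRNA abundance. NXPM is the authors' score of crosslinked reads scaled to the total and divided by RNA abundance. Its median with FH-DHX36-E335A was 8.01 for catalytic genes, 7.82 for regulatory genes and 5.66 for all bound genes. With FH-DHX36 the order among bound genes was turned, at 9.23 for catalytic and 19.2 for regulatory genes, beside 7.84 for all. The intervals of these medians over members overlapped widely, at 0.905 to 26.7 for catalytic and 3.78 to 34.6 for regulatory genes. With unbound members at 0 the FH-DHX36 medians were 2.54 and 0. For NXPM of the 3'UTR alone, medians were taken only over members with 3'UTR reads. They were 3.24 for catalytic and 10.2 for regulatory genes with FH-DHX36-E335A, and 3.26 and 10.4 with FH-DHX36. Bound members without 3'UTR reads were left out, so these medians do not give the order of the classes over all bound members. The RNA abundance contained in NXPM, in the units of the authors' RNA-seq, had a median of 28.6 for the catalytic genes bound by FH-DHX36-E335A, 7.64 for the regulatory ones and 5.89 for all. Abundance thus moved with the difference between the classes, and its part in it was not tested.

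**Figure D1:**
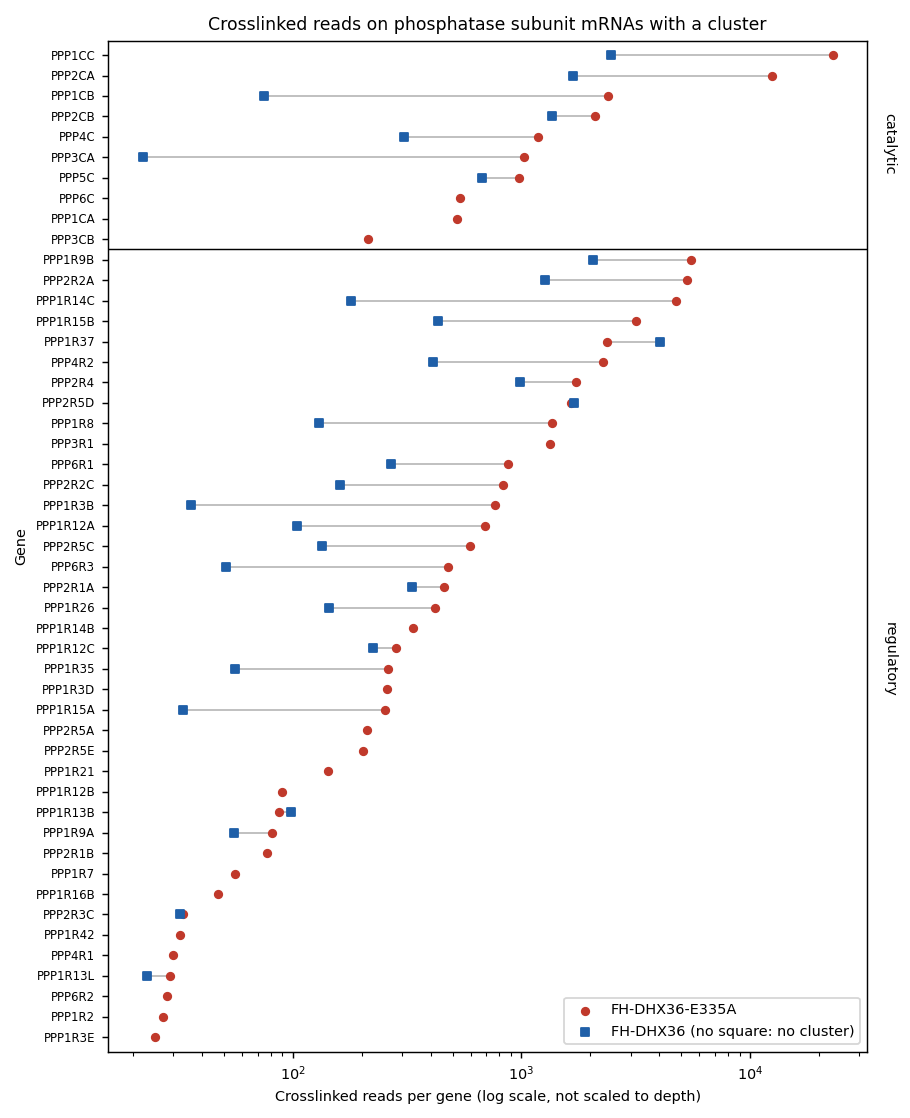
Crosslinked reads per gene on a log axis, not scaled to depth, for the 49 members with an FH-DHX36-E335A cluster, catalytic genes above the line and regulatory genes below it. Circles show FH-DHX36-E335A and squares FH-DHX36, with no square where no cluster was listed; PPP1CC and PPP2CA lie farthest to the right, and only PPP1R37, PPP1R13B and PPP2R5D have the square on the right of the circle.

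Among the PP1 catalytic genes PPP1CC stood far above the others. Its gene (chr12:111157480-111180740, minus strand) carried 23010 FH-DHX36-E335A reads, the 12th highest number in the table, and 2455 FH-DHX36 reads, ranked 124. Only 12 and 9 clusters held them, or 1918 and 273 reads per cluster, against 145 and 129 over all genes. Of the FH-DHX36-E335A reads 22395 (97.3%) were in none of the categories 5'UTR, CDS, 3'UTR and intron, as were 89.6% of the FH-DHX36 reads. Such reads, here called other annotation, made up 21.4% and 16.7% over all genes. The CDS of PPP1CC held 540 and 84 reads, its 3'UTR 75 and 172, and its 5'UTR, with the G-run match printed above, none.

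PPP1CB and PPP1CA were bound mainly or only by FH-DHX36-E335A. PPP1CB, the isoform of the myosin phosphatase, had 2390 reads in 25 clusters with FH-DHX36-E335A and 75 reads in 3 clusters with FH-DHX36. Scaled to 1000000 crosslinked reads in each PAR-CLIP (RPM), this was 7.87-fold more with FH-DHX36-E335A (95% interval 6.25 to 10.0, counting error only). The 3'UTR held 1102 and 37 of these reads, and the 5'UTR 47 and 0. PPP1CA had 524 FH-DHX36-E335A reads, 307 of them in the CDS, and was listed at 0 with FH-DHX36. Scaled to the FH-DHX36 total, its FH-DHX36-E335A reads would come to 129. Reads outside clusters are not listed, so such reads could go unlisted, which was not tested. The 3 PP1 catalytic proteins are close in sequence, and reads could be split between near-identical stretches if the mapping allowed it.

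The PP2A catalytic subunits, nearly identical proteins encoded by separate genes, differed in where they were contacted. PPP2CA (chr5:133529730-133561760, minus strand) was bound on its 3'UTR, with 7877 of 12450 FH-DHX36-E335A reads and 842 of 1684 FH-DHX36 reads there, and ranked 51 and 219 among all genes. PPP2CB had 2103 and 1363 reads, of which the 3'UTR held 197 and 0. Its CDS led with FH-DHX36-E335A, at 722 reads against 497 in the 5'UTR. With FH-DHX36 its 5'UTR led, at 1023 reads against 54 in the CDS. No other member had as many 5'UTR reads in either PAR-CLIP. The 5'UTR of PPP2CB is 397 nt long and contained 3 matches to runs of at least 3 G, while 15.5% of 5'UTRs of like length held any. In RPM, PPP2CA was 1.82-fold higher with FH-DHX36-E335A (1.73 to 1.92) and PPP2CB 2.63-fold higher with FH-DHX36 (2.45 to 2.81).

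The calcineurin A genes with clusters had most or all of their listed reads with FH-DHX36-E335A. PPP3CA had 1026 reads in 13 clusters with FH-DHX36-E335A, with 771 on the 3'UTR and 244 on the CDS, and 22 reads in a single CDS cluster with FH-DHX36. The ratio of RPM was 11.5 (7.56 to 18.5), the highest among the members, and at an abundance of 1.92 the FH-DHX36-E335A NXPM was 60.9, the highest of the catalytic genes. PPP3CB had 213 FH-DHX36-E335A reads and none with FH-DHX36. Scaled to the FH-DHX36 total, the 213 reads would come to 52.6, but reads outside clusters are not listed. PPP3CC, the other gene for this chain, was the only catalytic subunit without a cluster in either PAR-CLIP.

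The partner chain of calcineurin was listed with FH-DHX36-E335A alone. PPP3R1, the calcium-binding B subunit, had 1331 FH-DHX36-E335A reads in 19 clusters, 969 of them in the 3'UTR that holds the match printed above. It had no FH-DHX36 cluster. Scaled to the FH-DHX36 total, its FH-DHX36-E335A reads would come to 329, but reads outside clusters are not listed. PPP3R1 had the most FH-DHX36-E335A reads among the 18 members bound by that protein alone, whose median was 116.5. PPP3R2 had no cluster. Of the calcineurin genes listed, PPP3CA alone had FH-DHX36 reads.

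Single catalytic genes of the other phosphatases showed 3 different pictures. PPP4C, the most abundant catalytic mRNA here at 157, had 1182 and 307 reads but its NXPM was only 0.860 and 0.905. PPP1CA alone among the bound catalytic genes had a lower one, at 0.432 with FH-DHX36-E335A. PPP5C, which binds the chaperone HSP90 through its TPR domain, had 979 and 670 reads, with 794 and 584 in a 3'UTR of 629 nt. In RPM it was 2.77-fold higher with FH-DHX36 (2.51 to 3.06). PPP6C had 537 FH-DHX36-E335A reads, 264 in the CDS, and no FH-DHX36 cluster. Scaled to the FH-DHX36 total, its FH-DHX36-E335A reads would come to 133, but reads outside clusters are not listed.

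**Figure D2:**
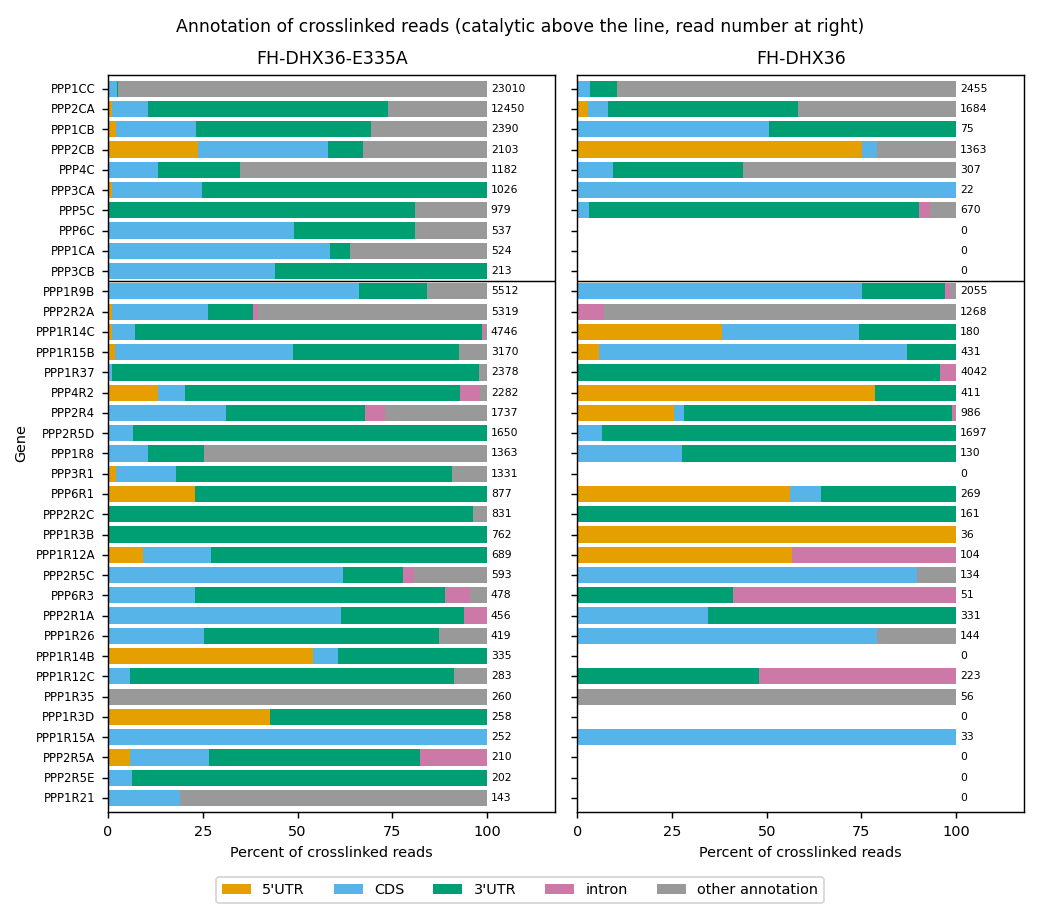
Percent of crosslinked reads by annotation for each member with at least 100 FH-DHX36-E335A reads, with FH-DHX36-E335A at left, FH-DHX36 at right, the number of reads beside each bar and catalytic genes above the line. PPP1CC is almost wholly other annotation in both panels, and the 5'UTR share of PPP2CB and PPP4R2 is wider with FH-DHX36 than with FH-DHX36-E335A.

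Of the 42 PPP1R genes, 23 (54.8%) had an FH-DHX36-E335A cluster and 14 (33.3%) an FH-DHX36 cluster, near the 47.7% and 31.0% of protein-coding lines. Spinophilin (PPP1R9B, chr17:48211101-48228038, minus strand), which targets PP1 to actin-rich sites, carried the most FH-DHX36-E335A reads of the regulatory genes, 5512, and 2055 FH-DHX36 reads. They lay mainly in the CDS, with 3651 and 1543 reads, followed by the 3'UTR with 981 and 453. At an abundance of 2.80 its NXPM was 225 and 340, ranks 65 and 32 among genes with an abundance of at least 1. By reads it ranked 249 and 171 among all genes.

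PPP1R37 (chr19:45594654-45651335, plus strand), a PP1-binding protein with leucine-rich repeats, was among the 3 members with more FH-DHX36 than FH-DHX36-E335A reads before any scaling, as were 10.7% of all genes bound in both. It had 2378 FH-DHX36-E335A reads and 4042 FH-DHX36 reads, although the total of the FH-DHX36 PAR-CLIP was the smaller. In RPM this was 6.89-fold more with FH-DHX36 (6.54 to 7.25), and its rank by reads moved from 881 to 59. The 3'UTR held 2303 and 3866 of them, or 3185 and 5347 reads per kb of 3'UTR, the highest density of any member in both. Its NXPM was 65.4 for FH-DHX36-E335A and, for FH-DHX36, 450, which ranked 20 among genes with an abundance of at least 1. Genes below that abundance reached higher NXPM values and were not ranked.

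Of the PP1 inhibitors of the PPP1R14 group, PPP1R14C alone had clusters in both PAR-CLIPs. PPP1R14C (chr6:150464180-150571530, plus strand), a phosphorylation-dependent inhibitor also called KEPI, had 4746 reads with FH-DHX36-E335A, 4348 of them in the 3'UTR, and 180 reads with FH-DHX36, 46 of them in the 3'UTR. In RPM this was 6.51-fold more with FH-DHX36-E335A (5.61 to 7.60). PPP1R14B was bound by FH-DHX36-E335A alone, with 181 reads in the 5'UTR, 132 in the 3'UTR and 22 in the CDS. It was the most abundant member, at 175, and its NXPM of 0.218 was among the lowest. PPP1R14A and PPP1R14D had no cluster.

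The regulators that direct PP1 to the translation factor eIF2alpha both had reads in the CDS. PPP1R15B, the constitutive form, had 3170 FH-DHX36-E335A reads in 27 clusters. The CDS held 1491 of these reads in 11 clusters and the 3'UTR 1390 in 13. With FH-DHX36 it had 431 reads, 350 of them in the CDS. The ratio of RPM was 1.82 (1.64 to 2.01). PPP1R15A, the stress-induced form, was chosen for its pairing with PPP1R15B after its values were seen. It had 252 and 33 reads, and all of them lay in the CDS. Its canonical 3'UTR is only 85 nt long, beside a CDS of 2025 nt.

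The remaining PPP1R genes chosen by their reads or ratios carried between 81 and 1363 FH-DHX36-E335A reads. PPP1R8, a nuclear inhibitor, had 1363 and 130 reads, of which other annotation took 74.7% and 0. The glycogen-targeting subunit PPP1R3B had 762 reads with FH-DHX36-E335A, all in the 3'UTR, and 36 with FH-DHX36, all in the 5'UTR. Its relative PPP1R3D had 258 and 0.

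PPP1R12A, the targeting subunit of myosin phosphatase, had 689 and 104 reads, with 502 and 0 in the 3'UTR. Its relative PPP1R12C had 283 and 223 reads and was 3.19-fold higher in RPM with FH-DHX36 (2.67 to 3.82). This ratio includes intron reads. Introns held 0 and 116 of the PPP1R12C reads and the 3'UTR 242 and 107. With only reads in the UTRs and CDS, in both the gene and the total, its RPM was 39.8 and 66.2. PPP1R26 had 419 and 144 reads. The 3'UTR of PPP1R26 held 260 and 0 of them and the CDS 106 and 114.

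PPP1R35, a centriole protein, had 260 and 56 reads, all of them other annotation. ASPP1 (PPP1R13B) had 87 and 98 reads, with the 98 all in the 5'UTR. Neurabin-1 (PPP1R9A), the relative of spinophilin, had 81 and 55. For the 9 PPP1R genes without an FH-DHX36 cluster, the median was 56 FH-DHX36-E335A reads. Among the 19 PPP1R genes without a cluster were DARPP-32 (PPP1R1B) and the muscle glycogen-targeting subunit PPP1R3A, both named after their values were seen.

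The PP2A scaffold genes were bound at low levels for their abundance. PPP2R1A, the main scaffold, had 456 and 331 reads at an abundance of 90.3, and its NXPM was 0.577 and 1.70. Its leading region was the CDS with FH-DHX36-E335A, at 280 reads, and the 3'UTR with FH-DHX36, at 217. PPP2R1B, the other scaffold, had 77 and 0 reads.

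Of the 4 genes for B55 subunits, which direct PP2A to substrates of mitotic exit, PPP2R2A and PPP2R2C were bound in both PAR-CLIPs and PPP2R2B and PPP2R2D in neither. PPP2R2A had 5319 and 1268 reads, and other annotation took 60.4% and 92.9% of them. PPP2R2C had 831 and 161, with 800 and 161 in the 3'UTR, and at an abundance of 1.34 its NXPM was 70.7 and 55.5. Neither differed by more than 2-fold in RPM between the PAR-CLIPs. For PPP2R2A this held for all reads only, since its UTRs and CDS held 2036 FH-DHX36-E335A reads and no FH-DHX36 read.

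The B56 subunits (PPP2R5) ranged widely. PPP2R5D had 1650 FH-DHX36-E335A and 1697 FH-DHX36 reads, of which 1541 and 1585 lay in the 3'UTR. In RPM it was 4.17-fold higher with FH-DHX36 (3.89 to 4.46), next to PPP1R37 and PPP1R13B. PPP2R5C had 593 and 134 reads, mainly in the CDS with 368 and 120, while PPP2R5A and PPP2R5E had 210 and 202 FH-DHX36-E335A reads and no FH-DHX36 cluster. PPP2R5B had no cluster. Of the 3 genes for B'' subunits only PPP2R3C was bound, with 33 and 32 reads.

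PPP2R4, the activator of PP2A that is now annotated as PTPA, had 1737 and 986 reads. Its 3'UTR, which holds a match printed above, carried 637 and 695, its CDS 539 and 27, and its 5'UTR 0 and 252. In RPM it was 2.30-fold higher with FH-DHX36 (2.12 to 2.49).

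PP4 and PP6 regulators were bound on a few genes. PPP4R2, a core regulatory subunit of PP4, had 2282 and 411 reads in 27 and 4 clusters. Its 5'UTR held 301 and 323 of them, and the 3'UTR 1656 and 88. PPP4R1 had 30 and 0 reads, and the other 5 PPP4R genes had no cluster.

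All 3 genes of the PP6 regulators were bound by FH-DHX36-E335A. PPP6R1 had 877 and 269 reads, with 675 and 96 in the 3'UTR and 202 and 151 in the 5'UTR. PPP6R3 had 478 and 51, and PPP6R2 28 and 0. These genes had 15 FH-DHX36-E335A clusters and 6 FH-DHX36 clusters in sum.

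Between the PAR-CLIPs, the 31 members bound in both did not move one way. The log2 ratio of RPM, FH-DHX36-E335A over FH-DHX36, had a median of 0.87 for the 7 catalytic genes (range -1.47 to 3.53) and -0.13 for the 24 regulatory genes (-2.78 to 2.70), beside 0.12 for all 5669 genes bound in both. Over 2-fold more with FH-DHX36-E335A was seen for 3 catalytic and 4 regulatory genes, against 28.6% of all genes. Over 2-fold more with FH-DHX36 was seen for 2 catalytic and 9 regulatory genes, against 24.8%. The catalytic median was -0.38 when only reads in the UTRs and CDS were used, so that its sign depended on the other annotation.

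The rank order of the members was similar in both. Spearman's rho was 0.73 for crosslinked reads and 0.70 for NXPM over 31 genes, beside 0.63 and 0.79 over all 5669. These are descriptions across genes that share a library. Both NXPM values of a gene contain the same abundance.

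**Figure D3:**
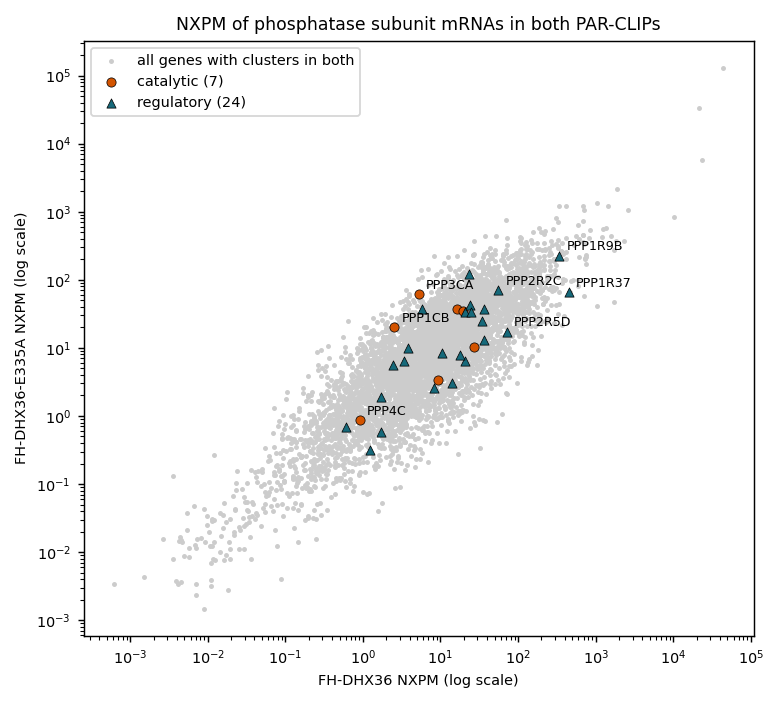
NXPM with FH-DHX36 on the x axis and with FH-DHX36-E335A on the y axis, both log axes, for every gene bound in both and with an abundance above 0 (small points), the 7 catalytic members (circles) and the 24 regulatory members (triangles). PPP1R9B and PPP1R37 lie at the upper right with FH-DHX36 values of 340 and 450, PPP4C at the lower left among the members, and PPP3CA and PPP1CB on the FH-DHX36-E335A side.

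By region, the 3'UTR took most exonic reads with FH-DHX36-E335A in both classes. Of reads in the UTRs and CDS, it held 70.7% for catalytic genes, 64.8% for regulatory genes and 71.9% over all genes. The CDS held 25.0%, 31.6% and 22.9%, and the 5'UTR 4.28%, 3.63% and 5.21%. By length, the 3'UTRs of the bound catalytic genes make up 56.6% of the mRNA and those of the regulatory genes 52.3%. Without PPP2CA the catalytic 3'UTR share was 50.9%, and without PPP1R14C the regulatory share was 59.6%.

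With FH-DHX36 the classes differed more, but few genes decided the shares. The 5'UTR took 34.1% of exonic reads on catalytic genes, 9.42% on regulatory genes and 10.7% over all genes. PPP2CB held 1023 of the 1073 catalytic 5'UTR reads. The 3'UTR share was 55.3% for catalytic and 67.5% for regulatory genes, beside 51.4% over all genes. Without PPP2CB the former was 84.1%, and without PPP1R37 the latter was 50.1%.

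The leading region of a gene often differed between the PAR-CLIPs. Of 26 members with at least 50 reads in both, 13 (50%) had the same leading region, against 62.3% of 4248 genes of the table. Among those that differed, PPP4R2, PPP6R1, PPP1R12A and PPP1R14C had the 3'UTR first with FH-DHX36-E335A and the 5'UTR first with FH-DHX36. In unscaled number, 5'UTR reads were higher with FH-DHX36 for 7 of the 31 members bound in both, against 10.2% of all genes bound in both. Introns held no FH-DHX36-E335A read and 19 FH-DHX36 reads of the catalytic genes, and 1.38% and 4.20% of the reads of the regulatory genes.

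Other annotation took a larger share of the catalytic reads, with 63.7% and 51.9%, than of the regulatory reads, with 17.9% and 10.1%. Without PPP1CC, a setting added after the data were seen, the catalytic shares were 27.6% and 29.4%. PPP1CC also set the summed level. All catalytic genes together held 5075 and 3044 RPM, and 2446 and 1908 without it. The regulatory genes held 4248 and 5994 RPM, and 3976 and 4123 without PPP1R37.

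G-run density was compared with the reads on the 3'UTR. Using 4 runs of at least 2 G, separated by 1 to 7 bases, on the sense strand and without overlap, 3'UTRs of bound catalytic genes held 1.30 matches per kb, those of bound regulatory genes 2.23 and those of all bound genes 1.73. Matches with at least 3 G per run were found in 0 of 10 catalytic and 13 of 39 regulatory 3'UTRs (33.3%), beside 15.6% of all bound genes. In the 5'UTR the order was turned, with 3 of 10 catalytic and 5 of 39 regulatory genes (12.8%), beside 8.89% of all.

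Across the members, 3'UTR reads per kb and G-run matches per kb had a Spearman's rho of 0.43 over 49 genes with FH-DHX36-E335A and 0.61 over 31 genes with FH-DHX36. Over all bound genes rho was 0.16 and 0.35. The points share a library and base composition. PPP1R37 and PPP5C, with 16.6 and 12.7 matches per kb, lay high in both PAR-CLIPs. PPP1R14C lay high with FH-DHX36-E335A at 2766 reads per kb but at 29.3 with FH-DHX36, with 4 matches in its 3'UTR.

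**Figure D4:**
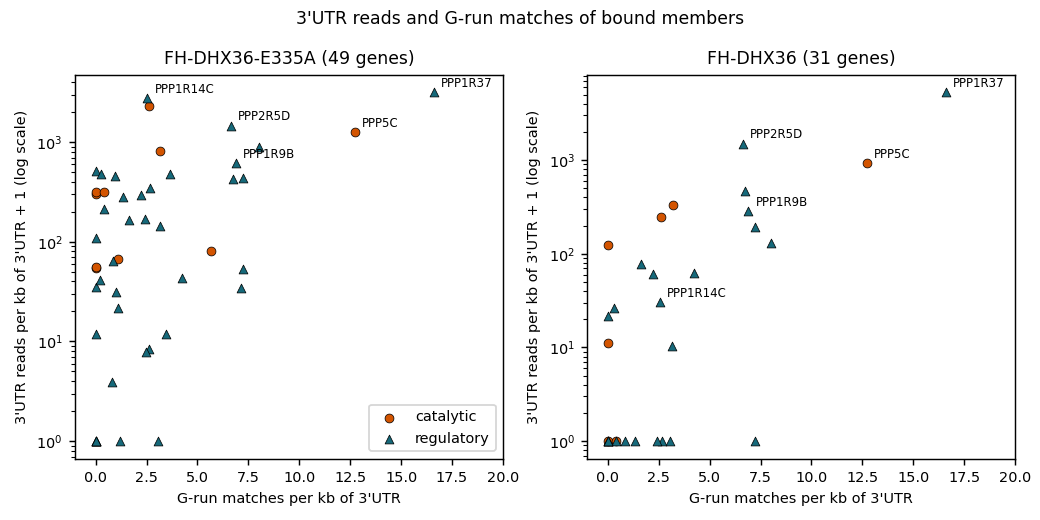
Matches to 4 runs of at least 2 G per kb of 3'UTR on the x axis and 3'UTR reads per kb plus 1 on a log y axis, for 49 members bound by FH-DHX36-E335A (left) and 31 bound by FH-DHX36 (right); circles are catalytic and triangles regulatory genes. PPP1R37 and PPP5C lie at the right and high in both panels, and points on the lowest line have no 3'UTR read.

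Partners and related phosphatases outside the naming rule were taken as a list of 57 genes, of which 54 were in the table. With FH-DHX36-E335A 48 of them (88.9%) had a cluster and with FH-DHX36 34 (63.0%), against 47.7% and 31.0% of protein-coding lines, and 6 had none. The list was drawn up with earlier results of these data known. The median reads of its bound genes were 684.5 and 290.5, beside 326 and 121 for all bound genes. The list held 18 genes with at least 1000 FH-DHX36-E335A reads. That cut served only to choose genes for naming, and its share over all genes was not counted.

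The PP2A inhibitor ANP32A had the most reads of this list, with 12407 FH-DHX36-E335A and 5301 FH-DHX36 reads. SET, another PP2A inhibitor, had 4173 and 1604. ANP32E, KIAA1524 and TIPRL, also listed, had 0, 156 and 784 FH-DHX36-E335A reads and no FH-DHX36 cluster. ENSA and ARPP19, which hold PP2A-B55 inactive in mitosis, had 7100 and 645 and 3023 and 326. The STRIPAK scaffolds STRN and STRN4, which take the place of a B subunit, had 1364 and 88 and 1010 and 615. URI1, a PP1-binding prefoldin-like protein, had 2482 and 624, SHOC2, a subunit of a PP1 holoenzyme, had 3075 and 339, and ANKRD52, a PP6 subunit, had 1220 and 235.

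Calmodulin activates calcineurin, and of its genes CALM2 had 3284 and 559 reads and CALM3 3792 and 1578. The calcineurin substrate NFATC3 had 4315 and 321. The metal-dependent phosphatases, an unrelated fold with the same chemistry, included PPTC7 with 9040 and 616, PPM1A with 5132 and 791, PPM1B with 3767 and 3408, PPM1L with 1697 and 444 and PPM1G with 1553 and 383. Over 2-fold higher RPM was found with FH-DHX36-E335A for 10 of the 34 list genes bound in both and with FH-DHX36 for 7, against 28.6% and 24.8% of all genes.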

How the data were processed

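The authors carried out PAR-CLIP on 2 cell lines, with 2 replicates each. By the study's methods, hg19 was the genome used for mapping, clusters were called with PARalyzer in PARpipe at default settings, and categories came from GENCODE release 19. The labels' processing notes name bcl2fastq 2.17.1. Binding sites are described as the intersection of replicates, and whether the table holds it was not tested. The authors deposited counts of clusters and of crosslinked reads without normalization, and the score NXPM, in which reads were scaled and divided by RNA abundance.

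RPM values are crosslinked reads scaled to 1000000. Members and lists were chosen with earlier results of these data known. Every catalytic gene, every bound PPP2R to PPP6R gene, and PPP1R genes leading by reads, NXPM or ratio were named. So were listed partners with at least 1000 FH-DHX36-E335A reads, and ANP32E, KIAA1524 and TIPRL for comparison. One listed partner and one sequence match that these rules would show are not reported here. Other annotation is the total minus the 4 categories. Abundance was recovered from reads and NXPM, minus 0.001, and was within 0.1% in both PAR-CLIPs for all 5649 genes compared. Lengths and G runs came from canonical transcripts of GENCODE release 44 on GRCh37, with 23911 lines and 80 members matched, 76 by symbol and 4 by RefSeq synonym, and 78 members with a transcript. Wilson intervals and exact binomial intervals of ratios (95%) cover counting error only, since PCR copies are not independent. The table lists reads only on genes with clusters, at least 5 for FH-DHX36-E335A and 6 for FH-DHX36, so that a 0 has no floor. With 1 value per line, no test was run. Scripts were tested on simulated data and used Python 3.11.15, pandas 2.3.3 and SciPy 1.17.1.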

Additional observations from a re-analysis of the deposited data

How the results depend on the processing

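No paired analysis was possible because the table has no replicate columns. For the same reason, leaving out replicates, a replicate block and tests were not run. Of 72 comparisons with an alternative setting, 44 moved by less than the interval or spread over members, 26 moved and 2 changed sign. The 3'UTR share of exonic reads moved under each of its 3 alternatives. For FH-DHX36-E335A it was 70.7% on catalytic genes, 56.8% by clusters, 58.9% as a median of members and 50.9% without PPP2CA, and 64.8% on regulatory genes, 59.0%, 71.9% and, without PPP1R14C, 59.6%. For FH-DHX36 the same settings gave 55.3%, 58.6%, 72.8% and, without PPP2CB, 84.1% for catalytic genes and 67.5%, 47.9%, 30.6% and, without PPP1R37, 50.1% for regulatory genes. Requiring 100 reads, the bound share of regulatory genes was 37.7% and 23.2%, and for FH-DHX36-E335A 36.0% of protein-coding lines passed. For FH-DHX36, 3273 of all 26490 lines passed. With unbound members at 0, the regulatory medians were 30 and 0 reads and an NXPM of 0.314 and 0, and the FH-DHX36 medians of catalytic genes fell from 670 to 75 reads and from an NXPM of 9.23 to 2.54. G-run matches with at least 3 G per run came to 0 and 0.175 per kb for catalytic and regulatory 3'UTRs. The median log2 ratio changed sign to -0.38 for catalytic genes on exonic reads and to 0.87 for regulatory genes bound in either PAR-CLIP with a pseudocount, which counts genes at 0 with FH-DHX36. Without PPP1CC, chosen after seeing the data, catalytic genes summed to 2446 and 1908 RPM and other annotation to 27.6% and 29.4%. Without PPP1R37, also chosen then, regulatory genes summed to 3976 and 4123. The cause of these moves was not tested, beyond the genes left out. Depth limits FH-DHX36 most, where members with few sites could go unlisted.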

Other observations

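PPP1R10, PPP1R11 and PPP1R18 had no cluster in either PAR-CLIP. They lie on chromosome 6 (GRCh37) at 30568190 to 30586389, 30034486 to 30038110 and 30644166 to 30655672. In the stretch from 2000000 bases before to 2000000 bases after them, chosen once their values had been seen, 10 of 152 protein-coding genes had an FH-DHX36-E335A cluster (6.58%, 95% Wilson interval 3.61 to 11.7) and 4 an FH-DHX36 cluster (2.63%, 1.03 to 6.57). On the rest of the chromosome 469 of 842 genes (55.7%, 52.3 to 59.0) and 287 (34.1%, 31.0 to 37.4) had one. These genes thus shared their 0 with most of their neighbours. The cause was not tested.

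PPP4R3A and PPP4R3B, regulatory subunits of PP4, were at 0 in every column. Their older symbols SMEK1 and SMEK2 are not identifiers of the table, and whether reads on these genes were assigned under another name was not tested.

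The share of a canonical 3'UTR that lies under exons of noncoding transcripts was set beside the share of reads in other annotation. It was 51% for PPP1CC and 91% for PPP4C, which had 97.3% and 65.1% of FH-DHX36-E335A reads in other annotation. It was also 98% for PPP2R5D and 100% for PPP1R37, which had 0 and 2.06%. For PPP2R2A and PPP1R8 it was 31.6% and 11.1%, beside 60.4% and 74.7% of FH-DHX36-E335A reads in other annotation. The overlap covers the 3'UTR only and uses a later GENCODE release than the authors' categories. Whether noncoding transcripts account for these reads was not tested.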
